A study of Mus musculus with 13 samples.

Results

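Activated neutrophils of mouse colon tumors were neutrophils whose own transcripts of Acod1 and Il1f9 outnumbered those of Ngp and Mmp8. They were 16999 of the 93871 retained barcodes of the tumors (18.1%) and 59.2% of the 28738 tumor neutrophils; the whole series held 118892 retained barcodes. A member carried at least 20 unique molecular identifiers (UMIs, each standing for a captured transcript) of S100a8 and S100a9 together and at least 1 of Csf3r or Cxcr2. It carried none of Cd3e or Cd79a, at most 2 of C1qa, C1qb and C1qc, and fewer than 5 of Rsad2, Ifit1, Ifit3 and Cxcl10 together. Cells passing the same neutrophil gate with more Ngp and Mmp8 than Acod1 and Il1f9 are called early neutrophils (6013 barcodes), and those with 5 or more UMIs of the interferon genes are called interferon neutrophils (3370 barcodes). The interferon class had no condition on Acod1, Il1f9, Ngp and Mmp8. A further 1320 neutrophils had equal counts of both pairs and 1036 had none of the 4 genes. The values of these 17 genes chose the classes, so they are given only as a description.

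Droplet scRNA-seq was made from 10 colon tumors and 3 pieces of adjacent colon mucosa of 3 mice, to describe tumors that arise under a diet rich in methyl donors. Every mouse was C57BL/6J, carried Apc Min/+ together with p16 cis/cis, and was fed the supplemented diet (choline, betaine, folic acid and vitamin B12), so that no library came from a mouse of another genotype or diet. Tumors 5, 6, 7 and 8 and mucosa 2 came from mouse A at 24 weeks of age, tumors 9 and 10 and mucosa 3 from mouse B at 23 weeks, and tumors 1, 2, 3 and 4 and mucosa 1 from mouse C at 20 weeks. Apc Min/+ is a germline truncation of a Wnt pathway suppressor that gives intestinal tumors, and p16 cis/cis is a targeted epimutation, a change that favors methylation of the p16 promoter. With 4, 2 and 4 tumors in the mice, tumors of a mouse share the animal and are not independent animals.

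Tumor libraries held 7789 to 11862 barcodes and 57221300 to 93157039 UMIs, and mucosa libraries 6537 to 15049 barcodes and 84883382 to 116133079 UMIs. Of 135282 distinct barcode sequences, 2284 stood in at least 2 libraries, with 14 to 61 shared by a pair of libraries, and 35 of the 16964 distinct barcodes of members stood in at least 2 tumors. The labels call 7 of the 13 libraries female, but all 13 held the summed Y-linked transcripts of Ddx3y, Uty, Kdm5d and Eif2s3y at 105 to 129 counts per 1000000 UMIs (CPM) and Xist at 0.0123 to 0.134 CPM, so the labelled sex entered no comparison.

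Neutrophils are short-lived granulocytes made in the bone marrow, where they fill their granules stage by stage: Ngp, Camp, Ltf and Mmp8 belong to the secondary granules, and their transcripts fade as the cell matures and leaves. In inflamed tissue and tumors, mature neutrophils can be switched on again through Toll-like, IL-1 and TNF receptors, which act on the transcription factor NF-κB and raise cytokines, chemokines and survival genes. Acod1 makes itaconate, a metabolite of activated myeloid cells that acts on mitochondrial respiration and inflammatory signaling, and Il1f9 encodes IL-36γ, an alarmin of the IL-1 family.

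To show the DNA in front of the 2 genes that name the class, and of 2 NF-κB targets described later, the RefSeq promoter sequences of build GRCm38.p6 are printed from 250 bases before to 50 bases after the start of transcription, 5′ to 3′ on the strand of the gene. Acod1 is at chr14:103046762-103047061 on the plus strand, Il1f9 at chr2:24186226-24186525 on the plus strand, Cxcl3 at chr5:90785851-90786150 on the plus strand and Nfkbia at chr12:55492598-55492897 on the minus strand. Capitals mark matches to the NF-κB consensus motif, searched on both strands.
Acod1: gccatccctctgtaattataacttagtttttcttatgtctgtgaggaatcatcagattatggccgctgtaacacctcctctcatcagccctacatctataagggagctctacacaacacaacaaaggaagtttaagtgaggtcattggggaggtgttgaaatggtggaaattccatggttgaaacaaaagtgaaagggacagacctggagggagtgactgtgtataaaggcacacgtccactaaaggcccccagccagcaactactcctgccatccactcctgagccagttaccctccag
Il1f9: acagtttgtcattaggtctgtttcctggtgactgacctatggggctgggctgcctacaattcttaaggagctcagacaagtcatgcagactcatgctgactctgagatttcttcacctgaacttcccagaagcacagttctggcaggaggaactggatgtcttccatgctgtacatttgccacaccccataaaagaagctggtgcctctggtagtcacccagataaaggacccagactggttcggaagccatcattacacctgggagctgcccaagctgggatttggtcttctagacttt
Cxcl3: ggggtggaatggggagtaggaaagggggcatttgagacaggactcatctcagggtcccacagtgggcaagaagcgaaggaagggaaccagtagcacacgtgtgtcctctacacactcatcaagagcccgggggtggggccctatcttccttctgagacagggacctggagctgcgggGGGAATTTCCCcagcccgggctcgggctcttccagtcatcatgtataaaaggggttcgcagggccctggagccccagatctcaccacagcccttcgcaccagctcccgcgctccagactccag
Nfkbia: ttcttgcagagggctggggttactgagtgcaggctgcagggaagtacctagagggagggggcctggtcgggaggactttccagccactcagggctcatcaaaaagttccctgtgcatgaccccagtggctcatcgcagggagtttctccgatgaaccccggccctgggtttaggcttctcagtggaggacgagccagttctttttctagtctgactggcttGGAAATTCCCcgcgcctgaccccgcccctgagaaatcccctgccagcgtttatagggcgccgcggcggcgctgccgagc

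The Cxcl3 promoter held 2 overlapping matches and that of Nfkbia 1, while the windows of Acod1 and Il1f9 held none of these letters. Across all 27025 genes with a promoter in the table, 2581 (9.55%) had a match. Of the 10 genes with the highest fold change over early neutrophils among those that passed the test, reached 50 CPM and were higher in every tumor, 9 had a promoter and 3 of these a match (Ccrl2, Csf1 and Cxcl3). Of the 10 lowest by the same limits 2 had one (Camp and Cd177). A match describes the sequence and is not a bound site, and a window without one says nothing about sites elsewhere.

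The members carried a median of 5 UMIs of Acod1 and 1 of Il1f9. Both genes were detected in 10109 of them (59.5%), Acod1 alone in 6173 (36.3%) and Il1f9 alone in 717 (4.22%), while Ngp and Mmp8 were both at 0 in 8466 (49.8%). Acod1 therefore placed most cells in the class. Summed over the members of a tumor, Acod1 lay at 1168, 1690.3 and 1915 CPM (lowest, median and highest of 10 tumors) and Il1f9 at 207, 495 and 756 CPM. The Il1f9 levels separated by mouse, at 207 to 327 CPM in mouse C, 481 to 510 CPM in mouse B and 554 to 756 CPM in mouse A, which those of Acod1 did not. Early neutrophils still held 504 ± 96.7 CPM of Acod1 and 218 ± 94.3 CPM of Il1f9 (mean ± SD, n = 10), and interferon neutrophils 1919 ± 296 and 447 ± 144 CPM. All these genes chose the cells, so no test was run on them.

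Checked against genes that the gate did not use, the members carried neutrophil transcripts. After every cell was thinned to 1000 UMIs, Retnlg, a secreted resistin-like protein of neutrophils, was detected in 93.8% of members and 1.83% of T cells of the same tumors (means of 10 tumors; 96.8% and 7.81% before thinning). G0s2, an inhibitor of the fat-cleaving enzyme ATGL that was listed among the markers of this class, was detected in 87.4% of members and 0.894% of T cells (93.7% and 3.43% before thinning). Its detection did not set the members apart from other neutrophils, since 88.6% of early and 84.2% of interferon neutrophils had it. In the class comparisons given below, its summed level was higher in members than in interferon neutrophils. The log2 fold change was 0.62 with all barcodes kept, and 0.34 and 0.16 in 2 narrower sets. Against early neutrophils the call depended on the barcodes. Ly6g, the surface protein by which mouse neutrophils are commonly stained, was seen in 17.6% of members, 32.8% of early neutrophils and 0.189% of T cells (37.7%, 62.2% and 0.525% before thinning). Median depths per tumor were 2441 to 3053 UMIs in members and 3172 to 4578 UMIs in T cells, and thinning left out 208 of 16999 members and 28 of 6250 T cells. T cells here were retained barcodes outside the neutrophil gate with at least 3 UMIs of Cd3d, Cd3e and Cd3g together, without doublet-scored barcodes. Members kept theirs (16.3%).

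The most abundant transcripts of the members were those of calprotectin, S100a9 at 88576 ± 7578 and S100a8 at 62861 ± 12553 CPM, the antimicrobial protein pair that the gate used. Next came Gm42418, which overlaps ribosomal RNA and ranged from 9258 to 106280 CPM, Fth1 (ferritin heavy chain), Malat1, Cxcl2, Retnlg, Tmsb4x, Srgn, Il1b, Wfdc17, Ifitm1, S100a6, Actb and Actg1. The neutrophil attractant Cxcl2 lay at 15663 ± 4747 CPM and Il1b at 8969.5 ± 1799.5 CPM, against 2582 and 1888 CPM in the rest of the tumor. The rest of the tumor means all other retained barcodes, with the other neutrophils included. CPM in 3′ libraries counts transcripts without regard to gene length. Members had a median of 2708 UMIs and 766 genes, fewer than early (3139 and 827) and interferon neutrophils (3853 and 935).

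Members held 8.74% of the UMIs in retained barcodes of the tumors (5.58% to 11.2% per tumor) but much larger shares of certain genes. Outside the gate, with at least 1000 UMIs per gene, the shares were highest for Csta3 (60.1%), Cxcr1 (56.6%), Gm39321 (56.4%), Cstdc4 (55.7%), G0s2 (55.1%), Stfa2l1 (55.1%), Nlrp12 (54.9%), Mrgpra2a (54.1%), Sycp2 (53.5%) and Rdh12 (53.4%). Members were 59.2% of tumor neutrophils, so genes that all neutrophils carry reach such shares too. Stfa2l1 averaged 1172, 1063 and 923 CPM in activated, early and interferon neutrophils, and neither it nor G0s2 passed the test between activated and early neutrophils. Csta3, Cstdc4 and Stfa2l1 are stefin-type protease inhibitors, and Cxcr1 is a receptor for neutrophil attractants. The gate genes themselves reached 58.7% for Il1f9 and 54.0% for Acod1. Among effector genes, 51.5% of Hcar2 UMIs, 36.3% of Cxcl2, 30.9% of Il1b, 23.9% of Cxcl3 and 20.0% of Ccl3 lay in members, but only 14.5% of Il1rn, 12.3% of Il1a, 5.25% of Nos2 and 0.963% of Arg1. Most Il1a and nearly all Arg1 of these tumors thus lay in other cells.

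Activated neutrophils made up 13.3%, 17.1% and 23.3% of the retained barcodes of a tumor (lowest, median and highest; 18.03 ± 3.24%, SD, n = 10). Among neutrophils they were steadier, at 54.1% to 62.1% (59.4 ± 2.68%). By mouse, the share of retained barcodes averaged 20.5% in A (15.95% to 23.3%), 15.3% in B (13.3% and 17.2%) and 16.9% in C (15.4% to 19.1%), so the ranges of the mice overlapped. An exact permutation test of the mouse labels over 3150 arrangements gave p = 0.103 for the share of retained barcodes and p = 0.636 for the share of neutrophils (0.206 and 0.636 after Benjamini-Hochberg adjustment over both). Members and other cells share each library, so fewer members and more of other cells cannot be told apart. Low-depth barcodes weighed on the first share, which averaged 29.8% when barcodes above 5000 UMIs were left out.

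The adjacent mucosa held almost none. The gate took 4 of 5188 retained barcodes in mucosa 1 (0.0771%, exact 95% binomial interval 0.0210% to 0.197%), 9 of 10684 in mucosa 2 (0.0842%, 0.0385% to 0.160%) and 7 of 9149 in mucosa 3 (0.0765%, 0.0308% to 0.158%). Neutrophils of any class were 11, 47 and 27 barcodes there, so that 20 of 85 mucosal neutrophils were activated. The intervals cover counting error only. Mucosa was treated with EDTA and TrypLE, whereas tumors were digested with a tumor dissociation kit, so tissue and dissociation cannot be told apart, and gene levels were compared only within tumors.

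**Figure D1:**
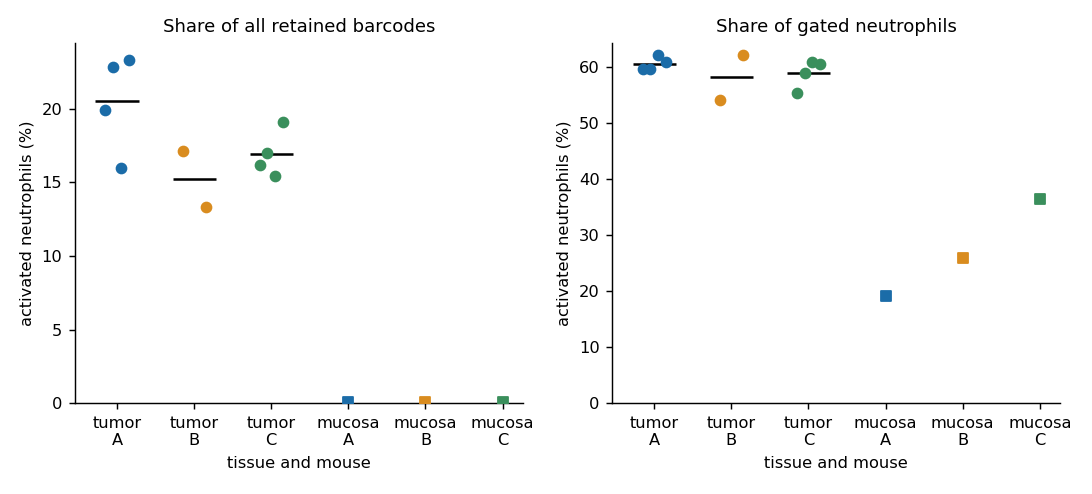
Activated neutrophils in percent of retained barcodes and in percent of neutrophils (y axes), for each library by tissue and mouse (x axes); points are libraries. Tumors lie between 13.3% and 23.3% of retained barcodes and the 3 mucosa libraries below 0.1%, and the 10 tumors lie between 54.1% and 62.1% of neutrophils.

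To describe what distinguished activated from early neutrophils of the same tumor, UMIs were summed per tumor and class and compared with edgeR's quasi-likelihood test with each tumor as a block. Both classes were cut from the same neutrophils by their own counts, so a p-value says how steadily another gene differed between the gates across 10 tumors; it tests no condition of the study. Activated neutrophils had higher sums of 829 genes (7.60% of the 10908 tested) and lower sums of 1032 (9.46%) at an adjusted p under 0.05, 94 (0.862%) of them at least 2-fold higher and 56 (0.513%) at least 2-fold lower, with a median log2 fold change over all genes of 0.03. The filter on low counts was applied again in each alternative. The 94 became 157 of 7115 genes tested without barcodes scored as doublets, with 48 shared and 57 of the 94 still tested, and 40 of 9218 genes tested without the block, all 40 shared and 55 of the 94 still tested. By list, all 20 NF-κB targets and regulators, 7 of 12 IL-1 family genes and 8 of 17 chemokines and cytokines were higher in activated neutrophils, and 14 of 15 granule protein genes were lower.

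Among IL-1 family and inflammasome genes, 7 of 12 were higher and 0 lower (median log2 fold change 0.35). Il1a, an alarmin that acts on the IL-1 receptor, lay at 118, 165 and 313 CPM in activated neutrophils (lowest, median and highest tumor) and at 28.6, 35.4 and 58.9 CPM in early neutrophils. The ranges did not overlap, and the log2 fold change was 2.09 ± 0.10 (SE; edgeR adjusted p = 1.79e-10, higher in 10 of 10 tumors). Il1rn, which encodes the antagonist of the same receptor, moved with it, from 111, 130 and 174 CPM in early to 284, 327 and 435 CPM in activated neutrophils (1.24 ± 0.07, edgeR adjusted p = 1.45e-09). Again no activated value reached down to an early one. Il1b, far more abundant at 5873, 9217 and 12178 CPM against 3893, 6026 and 7429 CPM, changed less and its ranges overlapped (0.55 ± 0.06, edgeR adjusted p = 1.39e-06). The inflammasome sensor Nlrp3 rose by 0.92 on the log2 scale. Casp1, Pycard and Gsdmd, which process and release IL-1β, had log2 fold changes of -0.22, -0.24 and -0.08, none past the threshold.

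Of the chemokines and cytokines, 8 of 17 tested were higher and 1 lower, with 6 of the 8 at least 2-fold higher. Ccl3, a chemokine that binds CCR1, rose from 37.5, 94.2 and 124 CPM to 204, 367 and 538 CPM (1.95 ± 0.09, edgeR adjusted p = 1.79e-10), and Cxcl3, a CXCR2 ligand, from 116, 263 and 636 CPM to 552, 991 and 1455 CPM (1.89 ± 0.12, edgeR adjusted p = 4.41e-09). Ccl3 ranges were apart, and those of Cxcl3 overlapped. Cxcl2 more than doubled on average, from 7294 to 15663 CPM (1.03 ± 0.06), as did Tnf, from 48.7 to 112 CPM (1.05 ± 0.09), and Csf1, the macrophage growth factor, from 18.7 to 50.9 CPM (1.36 ± 0.08). Il23a, the p19 chain of IL-23, had the highest fold change of the list at a low level, 47.0 ± 25.8 against 8.86 ± 5.04 CPM (2.30 ± 0.16, edgeR adjusted p = 1.17e-08). Ccl6 was the lower one (-0.23). Il6, Osm, Cxcl1 and Vegfa did not pass, with log2 fold changes of -0.33, -0.08, 0.52 and 0.16.

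On the receptor side, 11 of 20 surface receptors were higher and 1 lower. Changes were mostly small, from 0.19 for Ccr1 to 0.66 for the platelet-activating factor receptor Ptafr. The exceptions were Ccrl2, a receptor that binds chemerin without classical signaling, at 365 ± 133 against 93.0 ± 42.1 CPM (1.91 ± 0.08, edgeR adjusted p = 1.65e-10), and the adhesion molecule Icam1 at 118 ± 47.3 against 34.7 ± 16.8 CPM (1.71 ± 0.08, edgeR adjusted p = 1.65e-10). After thinning, Icam1 was detected in 10.5% of members and 12.4% of T cells, which use the gene themselves. The CCL3 receptor Ccr1 and the LPS receptor partner Cd14 rose by 0.19 and 0.35, and Tlr2 and C5ar1 did not pass (0.04 and 0.11).

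All 20 NF-κB targets and regulators were higher, 7 of them at least 2-fold, with a median log2 fold change of 0.79. The list was made of genes that NF-κB is known to induce and of its own subunits. The gate chose members by Acod1, a gene of activated myeloid cells, and Il1f9, of the IL-1 family. Higher levels of genes induced with them, in this list and in the IL-1 and cytokine lists, were therefore in part set by the gate. How large that part was, was not tested. Nfkbia, the inhibitor that holds NF-κB in the cytoplasm, lay at 877, 1825 and 3226 CPM against 329, 713 and 1632 CPM in early neutrophils. Its ranges overlapped between tumors, yet it was higher in each of the 10 tumors (1.20 ± 0.05, edgeR adjusted p = 1.65e-10). Tnfaip3, the ubiquitin editor A20 that ends the signal, rose by 1.11, and Traf1 and Marcksl1 by 1.14 and 1.17. The survival genes Bcl2a1a and Bcl2a1b, near-identical copies among which reads may be split, rose by 1.47 and 1.29. The subunits Nfkb1, Nfkb2, Rel and Relb changed less, by 0.51 to 0.59. In the RefSeq promoters, 9 of the 17 list genes with an entry held the consensus (Ier3, Nfkb2, Nfkbia, Nfkbie, Rel, Sod2, Tnfaip2, Tnfaip3 and Tnip1).

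Of the genes ascribed to suppressive neutrophils of tumors, 9 of 17 were higher and 1, Cd84, lower (-0.27), 3 of the 9 at least 2-fold. Cd274, which encodes PD-L1, lay at 84.8, 152 and 272 CPM against 35.98, 50.3 and 124 CPM (1.16 ± 0.08, edgeR adjusted p = 8.62e-09), and Ptgs2, the cyclooxygenase of prostaglandin synthesis, at 184, 263 and 479 CPM against 61.7, 124 and 206 CPM (1.12 ± 0.11, edgeR adjusted p = 9.80e-07). Both pairs of ranges overlapped. The lectin Clec4n (dectin-2) rose from 30.8 to 95.3 CPM (1.53 ± 0.09). Other genes of the list did not pass, Arg1 at 23.3 ± 13.6 against 16.7 ± 21.4 CPM (edgeR adjusted p = 0.293), Nos2 at 35.1 ± 10.9 against 28.4 ± 9.88 CPM (edgeR adjusted p = 0.323) and Wfdc17 at 8663 ± 1495 against 7518 ± 1666 CPM (edgeR adjusted p = 0.224). After thinning, Arg1 was detected in 0.780% of members and 0.662% of T cells, a similar share. Only the T cells excluded doublet-scored barcodes.

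In metabolism, the hypoxia and glycolysis list had 9 of 21 genes higher and 1 lower, and the lipid and eicosanoid list 4 of 11 higher and 2 lower. Egln3 and Ero1l, both hypoxia-responsive, rose by 1.02 and 1.08, whereas Gapdh, Ldha and Eno1 stayed within 0.11 on the log2 scale and did not pass. Hcar2, the receptor for niacin and β-hydroxybutyrate, rose from 626 to 1105 CPM (0.73 ± 0.05), and Alox5ap, which serves leukotriene synthesis, fell from 2144 to 1675 CPM (-0.47 ± 0.05). G0s2 did not pass (0.07 ± 0.04, edgeR adjusted p = 0.279), but was called higher without doublet-scored barcodes (0.23) and at up to 5000 UMIs (0.16).

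Granule proteins went the other way, with 0 of 15 tested higher and 14 lower, 7 of them at least 2-fold (median -0.99). Since Ngp and Mmp8 of the gate are granule genes themselves, lower levels of genes made at the same stage were in part set by it. Camp, the cathelicidin of secondary granules, lay at 0.887, 3.61 and 10.4 CPM against 22.8, 123 and 740 CPM (-5.54 ± 0.48, edgeR adjusted p = 1.57e-07), and Ltf, lactoferrin, fell to 4.77 ± 1.27 from 47.6 ± 32.4 CPM (-3.35 ± 0.31). These early sums came mainly from the 2149 cells with at least 6 more UMIs of Ngp and Mmp8 than of Acod1 and Il1f9, at 497 CPM of Camp and 108 CPM of Ltf on average. In the 2530 early cells with 2 to 5 more, Camp lay at 6.93 and Ltf at 2.04 CPM, Camp within the activated range and Ltf below the activated mean, so that both differences rested mainly on the far end of the early class. Mpo, Elane, Ctsg, Ms4a3 and Fcnb of the earliest stages were below 2 CPM on average in both classes and too low to be tested. Lcn2 and Lyz2, still abundant in both classes, fell by 1.00 and 0.99, and Cd177 fell from 223 to 101 CPM (-1.27 ± 0.08).

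Of 16 neutrophil identity genes 8 were lower and 1, Clec4d, higher. Among the lower ones, Lcn2, Cd177, Pglyrp1 and Mmp9 also belong to the granule protein list, so both lists count them. The higher count moved with the barcodes, to 6 higher and 8 lower without doublet-scored barcodes and 5 higher and 9 lower at up to 5000 UMIs. Retnlg fell by more than 2-fold, from 25868, 29059 and 30958 CPM to 12402, 14347 and 18921 CPM with no overlap (-1.06 ± 0.06, edgeR adjusted p = 1.08e-09), and Ly6g fell by 0.93. Il1r2, Trem1, Mxd1, Slpi and Hdc did not pass. In the oxidative burst and redox list 9 of 17 were lower and 3 higher. Of the NADPH oxidase genes, those that fell included Cybb (-1.40), Cyba (-0.39), Ncf1 (-0.21), Ncf4 (-0.28) and Rac2 (-0.45). Of these, Ncf1 lost its call in 5 of 22 alternatives, at -0.08 in the weakest. Antioxidant genes went both ways. Txnrd1, Slc7a11 and Sqstm1 rose by 0.43, 0.35 and 0.53, whereas Gpx1, Gclm and Prdx5 were lower. Over the alternatives these lay at -0.54 to -0.41, -0.37 to -0.26 and -0.24 to -0.11. Outside the lists given so far, the same limits of 50 CPM and of 1 direction in every tumor added Dusp2 (1.36) among the 10 highest genes and Adpgk (-1.71), Ly6c2 (-1.45), Ifitm6 (-1.23), Syne1 (-1.15) and Prok2 (-1.12) among the 10 lowest. Ly6c2 is also in the list of monocyte and macrophage markers used below.

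Of the 21 transcription factors 6 were higher and 5 lower. Maff (0.87), Bhlhe40 (0.82), Atf3 (0.61), Runx1 (0.52), Irf1 (0.35) and Klf6 (0.31) were the higher ones, and Cebpe (-0.79), the factor of secondary granule formation, Fosl1 (-0.71), Ikzf1 (-0.37), Spi1 (-0.25) and Bcl3 (-0.16) the lower ones. Bcl3 lost its call in 13 of 22 alternatives, among them those without doublet-scored barcodes and at up to 5000 UMIs. Cebpb, the most abundant of them at 3611 CPM, did not pass (0.11). Of 12 cell cycle genes 1 was higher and 0 lower, a share near that of all genes. It was Mki67, named after its value was seen, which lost its call in 12 of 22 alternatives. Genes that respond to tissue dissociation also differed, with 8 of 15 higher and 1 lower, Egr1 by 0.83, Jun by 0.44 and Fos by -0.35, and their part in the other differences was not tested.

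**Figure D2:**
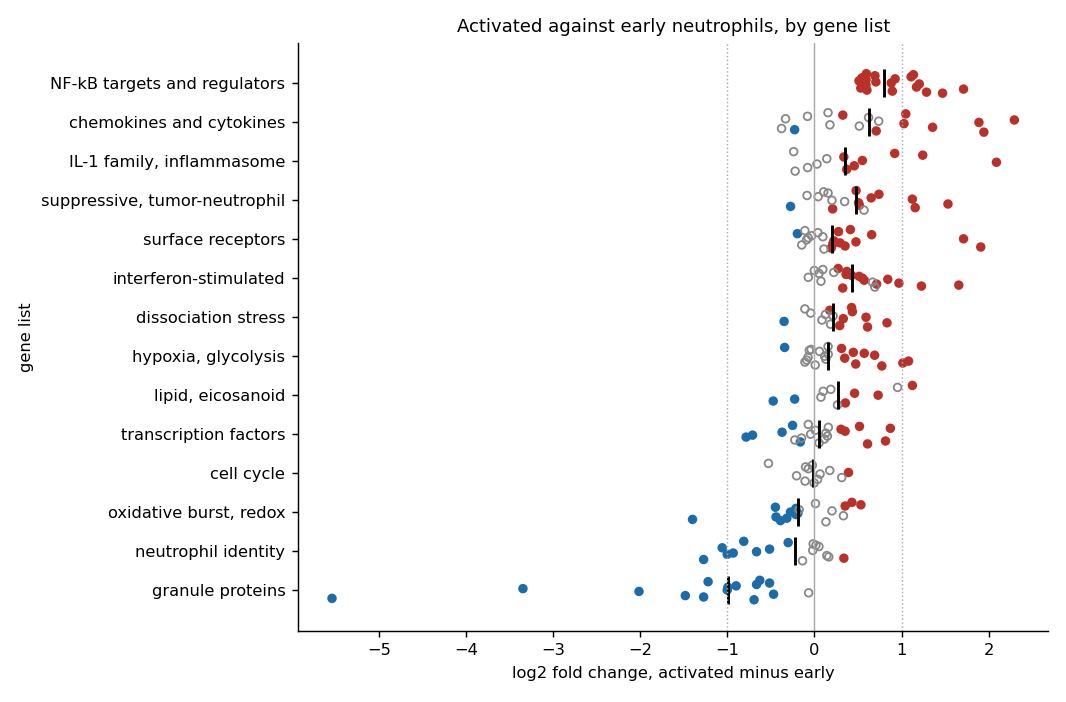
Log2 fold change, activated minus early neutrophils (x axis), for each gene of 14 lists (y axis). Filled points passed an adjusted p under 0.05 (red higher, blue lower), open points did not, black bars are list medians, and dotted lines mark 2-fold; the 20 NF-κB genes all lie right of 0 and 14 of 15 granule genes are blue.

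Transcripts of other cells stood in the sums. The 6 epithelial markers summed to 1880 CPM in activated (1192 to 2568), 1363 CPM in early and 2982 CPM in interferon neutrophils, with none at 0 in every tumor, and 3 of the 6 were higher in activated than in early neutrophils. The 10 monocyte and macrophage markers summed to 435, 567 and 514 CPM, with 3 of 10 lower in activated than in early neutrophils. Among the lower ones was Ly6c2, named above among the 10 lowest genes, at 71.1 against 181 CPM. The gap between the activated and early sums thus lay largely in this gene. Fibroblast markers were low but moved more, at 13.2 CPM in activated (1.26 to 74.4) against 2.53 CPM in early neutrophils, with 2 of 4 called at least 2-fold higher and a median log2 fold change of 2.08. Red blood cell markers, 5 in number, varied widely between tumors, at 614 CPM in activated (16.1 to 3785), 1316 CPM in early (7.42 to 10538) and 2948 CPM in interferon neutrophils (6.42 to 25080.1). With all barcodes kept, none was called between the classes. At up to 5000 UMIs, 3 of 4 tested were higher than in early neutrophils and 1 of 4 higher than in interferon neutrophils. The median log2 fold change against early neutrophils was 0.73 there and -0.96 with all barcodes kept. The 6 B and plasma cell markers summed to 967, 900 and 618 CPM, with 2 of the 3 tested, Igkc and Jchain, higher than in interferon neutrophils. The part of these transcripts in the results was not tested. A simulated-doublet score marked 16.3% of members (6.36% to 21.7% per tumor), 12.8% of early and 32.1% of interferon neutrophils. Without those barcodes the epithelial sum fell to 219 CPM in activated and 103 CPM in early neutrophils and the fibroblast sum to 3.14 and 2.42 CPM. The epithelial difference between these classes remained, with 3 of 6 markers higher in activated neutrophils, 2 of them at least 2-fold. Their median log2 fold change was 0.88 there, against 0.33 with all barcodes kept, where 0 were at least 2-fold higher. Of all genes tested without those barcodes, 17.3% were higher and 16.4% lower. All 20 NF-κB genes were still higher (11 at least 2-fold) and 14 of 15 granule genes still lower. Some low transcripts moved with the doublet-scored barcodes, Chil3 from 87.7 to 26.6 CPM and Cxcl9 from 24.0 to 9.36 CPM in activated neutrophils. With barcodes above 5000 UMIs left out, 20 of 20 NF-κB genes were higher and 13 of 15 granule genes lower, beside 19.6% and 17.7% of all genes. Of the epithelial markers 3 of 6 were higher there as well (median 0.42).

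Since the gate is a cut through a continuous range, levels were also described by its margin, the UMIs of Acod1 and Il1f9 minus those of Ngp and Mmp8. Among members, 2474 (14.6%) passed by a single UMI, 7139 (42.0%) by 2 to 5 and 7386 (43.4%) by 6 or more. On the early side, where Ngp and Mmp8 led by 6 or more, by 2 to 5 and by 1 UMI, Il1a averaged 34.4, 39.6 and 41.9 CPM and Ccl3 78.8, 84.1 and 114 CPM, with little difference between the first and the second. Just outside, at a margin of 0, Il1a averaged 82.8 CPM and Cxcl3 514 CPM, and just inside, at a margin of 1, they averaged 62.5 and 558 CPM; at 2 to 5 they lay at 109 and 745 CPM, at 6 to 14 at 211 and 1185 CPM, and at 15 or more at 415 and 1991 CPM. Il1rn and Ccl3 likewise averaged 194 and 205 CPM at the edge and 649.9 and 818 CPM at 15 or more. Retnlg declined on the early side, from 21763 CPM at a margin of -1 to 16964 CPM at 0, and then little, to 14381 CPM at 15 or more. The tumors spread widely in these bins. At a margin of 0 Il1a ran from 28.5 to 275 CPM with a median of 60.4 CPM, and at 1 from 30.6 to 120.0 CPM with a median of 58.6 CPM. Means and medians of Il1a and Ccl3 were higher at 0 than at -1 and higher again from 2 upwards, while the medians at 0 and 1 lay close together, and neighbouring bins overlapped between tumors. Of the 2356 cells at a margin of 0, 1036 carried none of the 4 gate genes. Deeper cells reach larger margins, and the part of depth in these trends was not tested.

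**Figure D3:**
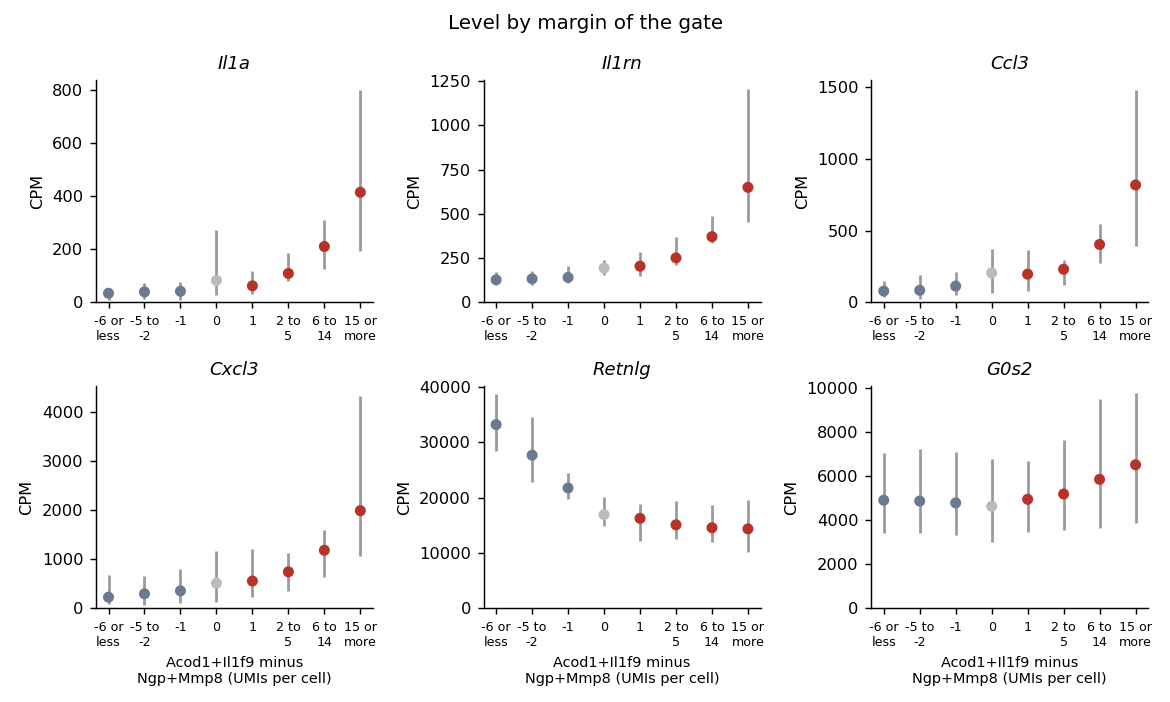
Level in CPM (y axes, summed per tumor) of 6 genes by the margin of the gate (x axes, UMIs per cell); points are means of 10 tumors and lines run from the lowest to the highest tumor, blue-gray for early, light gray for a margin of 0 and red for activated neutrophils. Il1a climbs from 62.5 CPM at a margin of 1 to 415 CPM at 15 or more, while Retnlg falls mainly below 0.

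To set the members beside the interferon class, activated and interferon neutrophils of each tumor were compared in the same way. Interferon neutrophils were chosen without regard to Acod1, Il1f9, Ngp and Mmp8, so cells with more Ngp and Mmp8 could enter. They held Ngp at 298 against 114 CPM in activated neutrophils, and Mmp8 at 382 against 297 CPM. The activated sums are those used above, so the comparisons share samples. Of 11975 genes, 1828 (15.3%) were higher and 1262 (10.5%) lower in activated neutrophils, 46 (0.384%) and 173 (1.44%) by at least 2-fold. The 46 fell to 10 without barcodes scored as doublets and to 28 without tumor 9. Of 15 granule protein genes, 5 were higher and 3 lower in activated neutrophils, 2 of the lower ones at least 2-fold. Of the interferon-stimulated genes outside the gate, 0 of 21 were higher and 19 lower, 12 of them at least 2-fold (median -1.18). Since the gate parted these classes by Rsad2, Ifit1, Ifit3 and Cxcl10, lower levels of genes induced with them were in part set by it. Isg15, a ubiquitin-like protein, lay at 173, 297 and 722 CPM in activated against 443, 869.6 and 1809 CPM in interferon neutrophils (-1.25 ± 0.16, edgeR adjusted p = 6.27e-05), and the guanylate-binding protein Gbp2 at 90.9, 192 and 429 against 330.2, 522 and 720.2 CPM (-1.18 ± 0.16, edgeR adjusted p = 7.92e-05). Ifit2 (-3.10), Cxcl9 (-3.03), Gbp5 (-2.46), Ifi203 (-2.37), Cmpk2 (-2.23) and Tagap (-1.99) were the lowest by the naming rule, and Cd300lb the one gene it gave as higher (79.8 against 43.2 CPM, 1.10 ± 0.12).

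Against early neutrophils, activated neutrophils themselves held more of this list, with 13 of 21 genes higher and 0 lower (median 0.43). Gbp5 rose by 1.66, Gbp2 by 1.23, Ifi47 by 0.97 and Isg15 by 0.84, all below their levels in interferon neutrophils.

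Of the NF-κB list 16 of 20 genes did not pass against interferon neutrophils. The 2 higher and 2 lower genes were no larger a share than among all genes (15.3% and 10.5%), and the median was 0.0022. Nfkbia, at 1845 against 1891 CPM, and Ccl3, at 361 against 359 CPM, did not pass (log2 fold changes 0.11 ± 0.11 and 0.21 ± 0.16, edgeR adjusted p = 0.487 and 0.340). Icam1, Cd274, Sod2 and Il1a had log2 fold changes of -0.80, -0.77, -0.72 and -0.51, and all 4 were lower also without doublet-scored barcodes (-1.26, -1.24, -1.31 and -1.06) and at up to 5000 UMIs (-1.65, -1.55, -1.61 and -1.53). The direction of Cxcl3 and Cxcl2 hung on the barcodes: they were higher in activated neutrophils in all barcodes (0.45 and 0.31), did not pass without doublet-scored barcodes (0.020 and -0.066), and were lower at up to 5000 UMIs (-0.31 and -0.31). Nfkbia and Ccl3 were lower at up to 5000 UMIs as well (-0.48 and -0.39). With the doublet-scored barcodes removed, 0 NF-κB genes were higher and 5 lower, beside 4.57% and 4.42% of all genes tested. Without barcodes above 5000 UMIs 18 were lower (median -0.55), beside 6.50% of all genes higher and 9.84% lower. Neutrophil identity genes, 13 of 16 higher in all cells, were 3 of 16 higher without the doublet-scored barcodes, where the share over all genes fell as well, from 15.3% to 4.57%. At up to 5000 UMIs 2 were higher and 3 lower, beside 6.50% and 9.84% of all genes. With all barcodes kept, 5 of 6 epithelial markers were higher in interferon neutrophils, whereas 0 of 6 were called in either alternative. The interferon list, whose direction was in part set by the gate, kept it in all 3 sets of barcodes. In both alternatives 21 of 21 genes were lower.

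**Figure D4:**
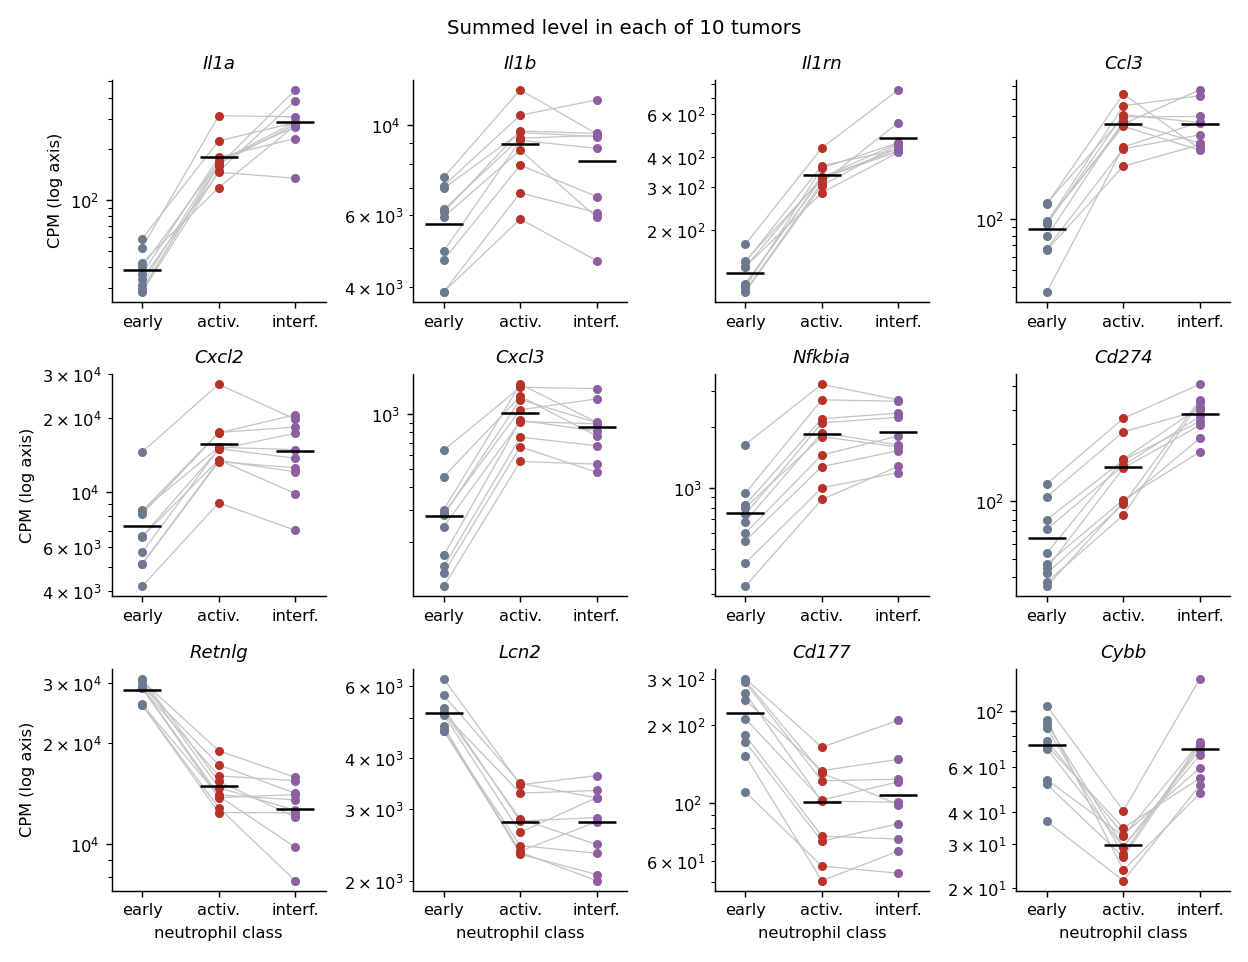
CPM on log axes (y) of 12 genes in early, activated and interferon neutrophils (x axes); each point is a tumor, gray lines join the classes of a tumor, and black bars are means. Il1a and Ccl3 separate activated from early neutrophils in every tumor, Cd274 is highest in interferon neutrophils (mean 288 CPM), and Retnlg is highest in early neutrophils (28618 CPM).

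Activated neutrophils also differed between the 3 mice. Across 10 tumors grouped by mouse, 433 of 11940 genes (3.63%) passed edgeR's quasi-likelihood test, 246 lower (2.06%) and 187 higher (1.57%) in mouse C than in mouse A, with mouse B in between for 348. Of these, 128 differed at least 2-fold between mice C and A and 22 between B and A. Mouse, age and any handling of the tissue by animal cannot be told apart here, and the count moved with single tumors, to 78, 100, 135, 144, 192 and 200 without tumors 2, 1, 6, 8, 7 and 4, and to 732 and 812 without tumors 3 and 5. The 10 genes named next were called in all 19 alternatives.

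Among genes with at least 20 CPM, those of lowest p were mostly lower in mouse C. Ddit3 (CHOP, a factor of the unfolded protein response) averaged 102 CPM in mouse A (97.2 to 109.6), 73.1 in mouse B (71.8 and 74.5) and 39.4 in mouse C (36.4 to 44.2), without overlap between any mice (edgeR adjusted p = 0.00217). The immediate early factor Jun averaged 519, 367 and 245 CPM, with an equally clear order (edgeR adjusted p = 0.00482). Of the dissociation-responsive list, to which Jun belongs, 3 of 15 were lower in mouse C and 0 higher. Chka, Prnp, Sertad1, Olfm4, Prdm2, Neat1 and 5430427O19Rik were also lower in mouse C than in A, and Tgm2, a transglutaminase, was the one among these 10 genes that was higher (219, 327 and 497 CPM). Olfm4 marks a subset of neutrophils and fell from 58.4 CPM in mouse A to 23.2 CPM in mouse C, against 6.41 and 2.44 CPM in the rest of the tumor. All 10 genes had the same direction between mice A and C in the rest of the tumor, Jun for example with 696 and 373 CPM and Tgm2 with 154 and 228 CPM. That rest included the early, interferon and other neutrophils, and their part in it was not tested.

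Of the NF-κB list 2 of 20 genes were called, both lower in mouse C, of the chemokines and cytokines 1 of 16 was lower and 1 higher, of the IL-1 family 3 of 12 were lower, and of the surface receptors 4 of 20 were lower, so that most members of these lists did not pass; of all genes tested, 2.06% were lower and 1.57% higher. Icam1 averaged 143, 168 and 68.9 CPM in mice A, B and C, Tnf 146, 151 and 59.2 CPM, and Nfkbia 2210.1, 2504 and 1150 CPM (edgeR adjusted p = 0.00951, 0.0125 and 0.0356). Each was lowest in mouse C, and mice A and B overlapped. Of the hypoxia list 4 of 22 genes were higher and 0 lower in mouse C, beside 1.57% higher among all genes, and 18 did not pass. Ero1l averaged 56.2, 77.6 and 126 CPM, Pgam1 164, 222 and 336 CPM, Vegfa 32.4, 37.5 and 55.6 CPM and Bnip3 47.1, 66.5 and 90.2 CPM (edgeR adjusted p = 0.0217, 0.0204, 0.0289 and 0.0356). Of these, Vegfa did not separate activated from early neutrophils.

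Technical markers differed between the mice as well. Hbb-bs, a globin of red blood cells, averaged 20.5, 26.2 and 951 CPM in mice A, B and C, and Gm42418 lay at 86605 to 106280 CPM in mouse A, 29323 and 97374 in B and 9258 to 32957 in C. Their part in the gene differences was not tested.

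**Figure D5:**
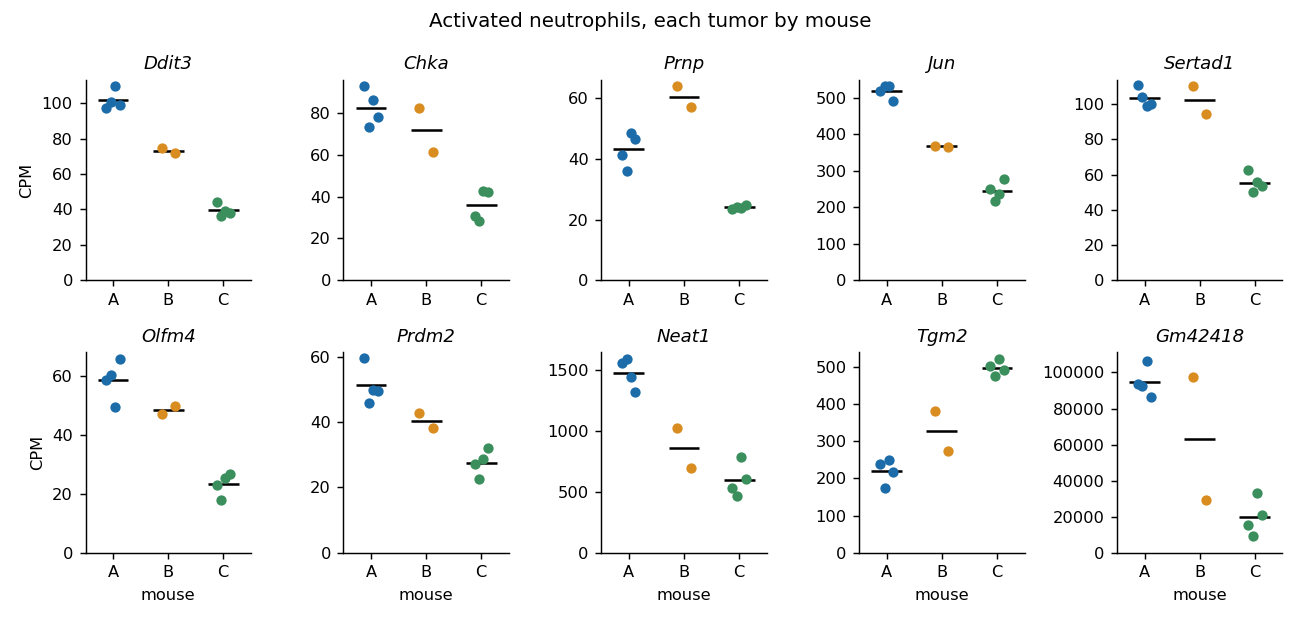
CPM in activated neutrophils (y axes, from 0) of each tumor by mouse (x axes), for 9 of the 10 genes of lowest p between mice with at least 20 CPM and for Gm42418; points are tumors and bars are means. Ddit3 and Jun descend from mouse A through B to C, and Tgm2 ascends.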

How the data were processed

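Single cells of 10 colon tumors and 3 pieces of adjacent mucosa were captured with 10x Chromium 3′ chemistry. The authors deposited raw UMI counts per gene and barcode for each library, made with Cell Ranger 6.0.0 and mm10 per the submitters' processing notes. The deposited counts are not normalized, cover 32285 genes and 137591 barcodes, and reach 57221300 to 116133079 UMIs per library.

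A barcode was retained if it had 500 UMIs or more from 200 genes or more and less than 25% of them mitochondrial (18699 were removed), and the gate described in the report was applied to raw UMIs. Doublets stayed in and were removed only as an alternative, which took the highest scores in each library at 0.8% per 1000 barcodes (12157 barcodes). Counts were summed per tumor and class. Genes were filtered with filterByExpr, scaled by TMM and tested with edgeR 4.0.16 (quasi-likelihood test, R 4.3.3, limma 3.58.1), with the tumor as a block between classes and the mouse as the factor within activated neutrophils. The block pairs the 2 sums of 1 library, and replicate numbers of tumors and mucosa pair nothing. P-values were adjusted by Benjamini-Hochberg over all genes tested. CPM are UMIs per 1000000 of the class sum, and ± is the SD over tumors for CPM and the SE for log2 fold changes. Alternatives were DESeq2 1.42.0, other filters, no block, sums per mouse, equal UMI sums, barcodes of at most 5000 UMIs and leaving out each tumor. Shares and figures used Python 3.11.15 with numpy 2.4.6, pandas 2.3.3, scipy 1.17.1 and scikit-learn 1.9.0. The edgeR step was tested on simulated data.

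Genes were named from fixed lists, as the 10 highest and 10 lowest fold changes against early neutrophils (6 and 6 against interferon neutrophils) among called genes with at least 50 CPM in the higher class and the same direction in every tumor, as the 10 genes of lowest p between mice with at least 20 CPM, as the 15 most abundant genes, and as the 10 genes of highest share. List members were named where they were abundant, changed most or have a role the text turns on. The members and lists were chosen with earlier results of these data known. Values of a few list members are not reported here.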

Additional observations from a re-analysis of the deposited data

Results flagged for a closer look

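Of 47 groups of 10 tumors examined for a value far from the others, 2 held one, where chance alone gives 2.35. In activated neutrophils of tumor 10, Cxcl2 stood at 27354 CPM, with the next tumor at 17459 CPM. Malat1, a nuclear RNA, stood at 23213.5 CPM in tumor 5, with the next at 19147 CPM.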

How the results depend on the processing

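Each alternative changed 1 choice, and the filter on low counts was applied again to its sums, so that the number of genes tested moved with it. The barcode limit of 5000 UMIs was chosen after seeing the data. Genes at least 2-fold higher than in early neutrophils (94) numbered 157 without doublet-scored barcodes, 152 at up to 5000 UMIs, 169 with no filter on low counts and 51 with DESeq2, and 82 to 108 with 1 tumor left out. Genes at least 2-fold lower (56) stayed within 1.5 times in every alternative, at 49 to 64 with 1 tumor left out. Against interferon neutrophils, the 46 higher genes became 10 without doublet-scored barcodes, 28 at up to 5000 UMIs, 83 with no filter, 81 with tumors of 1 mouse summed and 26 with equal UMI sums, and 28 to 67 with 1 tumor left out, and the 173 lower genes numbered 155 to 197 with 1 tumor left out and 119 to 234 in the other alternatives. The genes themselves changed more than the lower count did. Without doublet-scored barcodes, 8 of the 46 and 61 of the 173 were shared, with 27 and 90 still tested. At up to 5000 UMIs, 9 of the 46 and 59 of the 173 were shared, with 25 and 68 still tested. The 433 genes that differed between mice became 844 without doublet-scored barcodes, 824 under 10% mitochondrial UMIs, 705 with at most 2 macrophage UMIs, 877 at up to 5000 UMIs, 805 with no filter and 1179 with DESeq2, and 78 to 812 with 1 tumor left out. The share of retained barcodes was 29.8% at up to 5000 UMIs against 18.03%. The causes were not tested.

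Without the replicate block, 40 genes were at least 2-fold higher and 42 lower than in early neutrophils among 9218 tested (55 of the 94 and 42 of the 56), and 20 higher and 119 lower than in interferon neutrophils among 9918 tested. The 27 genes named by fold change kept their direction and an adjusted p under 0.05 in all 22 alternatives. At the weakest, Retnlg (-0.968) and Cd300lb (0.996) fell just short of 2-fold. In contrast, 54 of 122 called list genes against early neutrophils, and 5 of 16 interferon-stimulated genes outside the naming rule against interferon neutrophils, lost the call by adjusted p in at least 1. Genes with too few UMIs to pass the filter, such as Elane and Ms4a3, were not tested, so that a difference in them was not detectable at this depth.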
